A study of Caenorhabditis elegans with 43 samples.

Results

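Nuclear hormone receptors are transcription factors with a zinc-finger domain that binds DNA and, in most members, a second domain that can bind small lipophilic ligands. Caenorhabditis elegans carries a very large family, most of which arose by duplication of a receptor related to vertebrate HNF4, alongside a few receptors with a clear counterpart in flies and vertebrates. Known functions include control of fat metabolism, of responses to diet, toxins and pathogens, and of larval development and molting. The family was taken as every gene with a symbol made of nhr and a number, leaving out the molting regulators nhr-23, nhr-25 and nhr-85. Of 265 such rows among 20182 genes in the count table, 172 had at least 1 CPM (a footprint count scaled to a fixed library total) in 5 or more of 43 libraries and are the receptors described here.

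The libraries hold ribosome-protected mRNA fragments (footprints) from whole worms, collected every 2 h after arrested L1 larvae were given bacteria, so a level reflects both the amount of an mRNA and its translation. Wild type N2 was collected together with lin-41(xe11) and with lin-41(xe11); let-7(n2853), called the double mutant below, in 1 time course of 11 libraries per strain from 18 to 38 h, and monosomes purified by size-exclusion chromatography. The let-7(n2853) strain made up an earlier time course of 10 libraries from 18 to 36 h, with monosomes from sucrose gradients, so strain cannot be told apart from course and purification there. let-7 is a microRNA that represses lin-41, which encodes an RNA-binding protein, n2853 is a mutation in let-7 and xe11 an allele of lin-41. The double mutant carries both alleles, and N2 carries neither. There was 1 library per strain and hour, so hours stand in for replicates and no independent culture of any strain was available.

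Libraries of the course with N2 held 5020197 to 12797339 counts, and those of let-7(n2853) 17364056 to 32261888. The level of lin-41 in N2 was 48 to 64.9 CPM at 18 to 24 h and 6.35 to 19.4 CPM at 28 to 36 h. At the later hours it was 52.6 to 65.7 CPM in let-7(n2853), 20.1 to 34.0 CPM in double mutants and 16.7 to 40.6 CPM in lin-41(xe11). All markers of intestine, germline, neurons, epidermis and muscle were detected in every strain. In N2 the summed level of 8 germline markers ranged from 298 to 486 CPM early and from 692 to 1295 CPM late, and that of 6 neuronal markers from 226 to 291 CPM early and from 143 to 201 CPM late. Sums for intestine, epidermis and muscle in N2 overlapped between these hours. They were 2615 to 3397, 899 to 2015 and 12328 to 13864 CPM early, and 2202 to 3980, 477 to 2971 and 10517 to 15168 CPM late. In whole animals, fewer cells of a type and less RNA per cell cannot be told apart.

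The receptors were translated at low levels. Together they took 0.159% ± 0.0044 of the footprints of N2 at 18 to 24 h (SD, n = 4 hours) and 0.116% ± 0.016 at 28 to 36 h (n = 5 hours). Their median density was 3.21 CPM per kb of coding sequence, against 11.3 over all genes that passed the same filter. A mean under 5 CPM was seen for 98 receptors, 13 of them under 1 CPM, and only 18 had a mean over 20 CPM, while 118 reached 1 CPM in all 43 libraries. Of the 93 rows left out, 84 never reached 1 CPM and 3 had no count at all. Among them were nhr-2, nhr-111 and nhr-239, which had been listed as receptors of conserved subfamilies or of known role. Receptors at the edge of the filter were nhr-260, nhr-167, nhr-141 and nhr-38, with 1 CPM in 5 libraries, and nhr-147, nhr-152 and nhr-171, with 1 CPM in 4.

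The 12 receptors with the highest mean density over all 43 libraries held 36.9% of the family's mean CPM. First came nhr-49, a regulator of fatty acid desaturation and oxidation, at 45.5 CPM per kb, followed by nhr-31, which controls V-ATPase genes in the excretory cell, at 45.1 CPM per kb. After these came nhr-68 at 42.4 CPM per kb, a receptor that acts with nhr-10 to switch on the propionate shunt. Over the libraries these levels overlapped, since nhr-49 ranged from 45.8 to 101 CPM, nhr-31 from 47.1 to 123 CPM and nhr-68 from 23.3 to 67.2 CPM. Next in density were nhr-1 at 34.2, nhr-3 at 27.7, nhr-14, a receptor linked to iron uptake, at 27.1, and nhr-45, linked to detoxification, at 22.5 CPM per kb. Then nhr-41, the counterpart of fly DHR78, stood at 22.2, nhr-46 at 22.1, nhr-91, the counterpart of fly DHR4, at 21.7, nhr-97 at 21.5 and nhr-86, a sensor of a bacterial metabolite in the intestine, at 20.0 CPM per kb. From nhr-45 to nhr-97 neighbouring values differed by less than the range of each over the libraries.

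Chromosome V held 166 of the 265 family rows and 107 of the 172 receptors. The median density there was 2.53 CPM per kb, against 6.23 for the 65 receptors on other chromosomes. Only 2 of the 12 densest receptors, nhr-68 and nhr-86, lie on chromosome V, whereas 5 lie on X and 4 on IV. Another family row was the adjacent gene on at least 1 side of 88 receptors. How multiply mapping reads were counted was not given in the sources used here, so values of near-identical neighbours are uncertain.

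Whether a level changed between hours was asked across the 33 libraries of the course with N2, with strain as a term. The test, edgeR's quasi-likelihood F test with Benjamini-Hochberg adjustment over all genes, called 122 of 167 receptors tested (73.1%), against 89.2% of all 13691 genes tested. The receptors peaked early. The highest mean level lay at 18 to 24 h in 91 of the 122 called receptors (74.6%, against 39.5% of all called genes), with 42 at 18 h and 27 at 22 h. A smaller group of 24 peaked at 30 to 32 h, near the share of all called genes. The shares were 9.02% at 30 h and 10.7% at 32 h, against 7.89% and 9.10% of all called genes. At 26 to 28 h 4 peaked (2.46% and 0.82% at these hours, against 4.77% and 4.97%). The other 3 peaked at 34 to 38 h (2.46%, against 33.8% of all called genes). The lowest level lay at 34 to 38 h in 95 (77.9%, against 43.3%). The ratio of highest to lowest mean hour had a median of 2.02 (quartiles 1.78 and 2.82), against 2.43 for all called genes, and both hours were picked from the data. In the separate let-7(n2853) course the peak fell on the same hour in 63 of the 122 and within 2 h in 84. This was not counted over all genes, so it is not a result about the family.

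**Figure D1:**
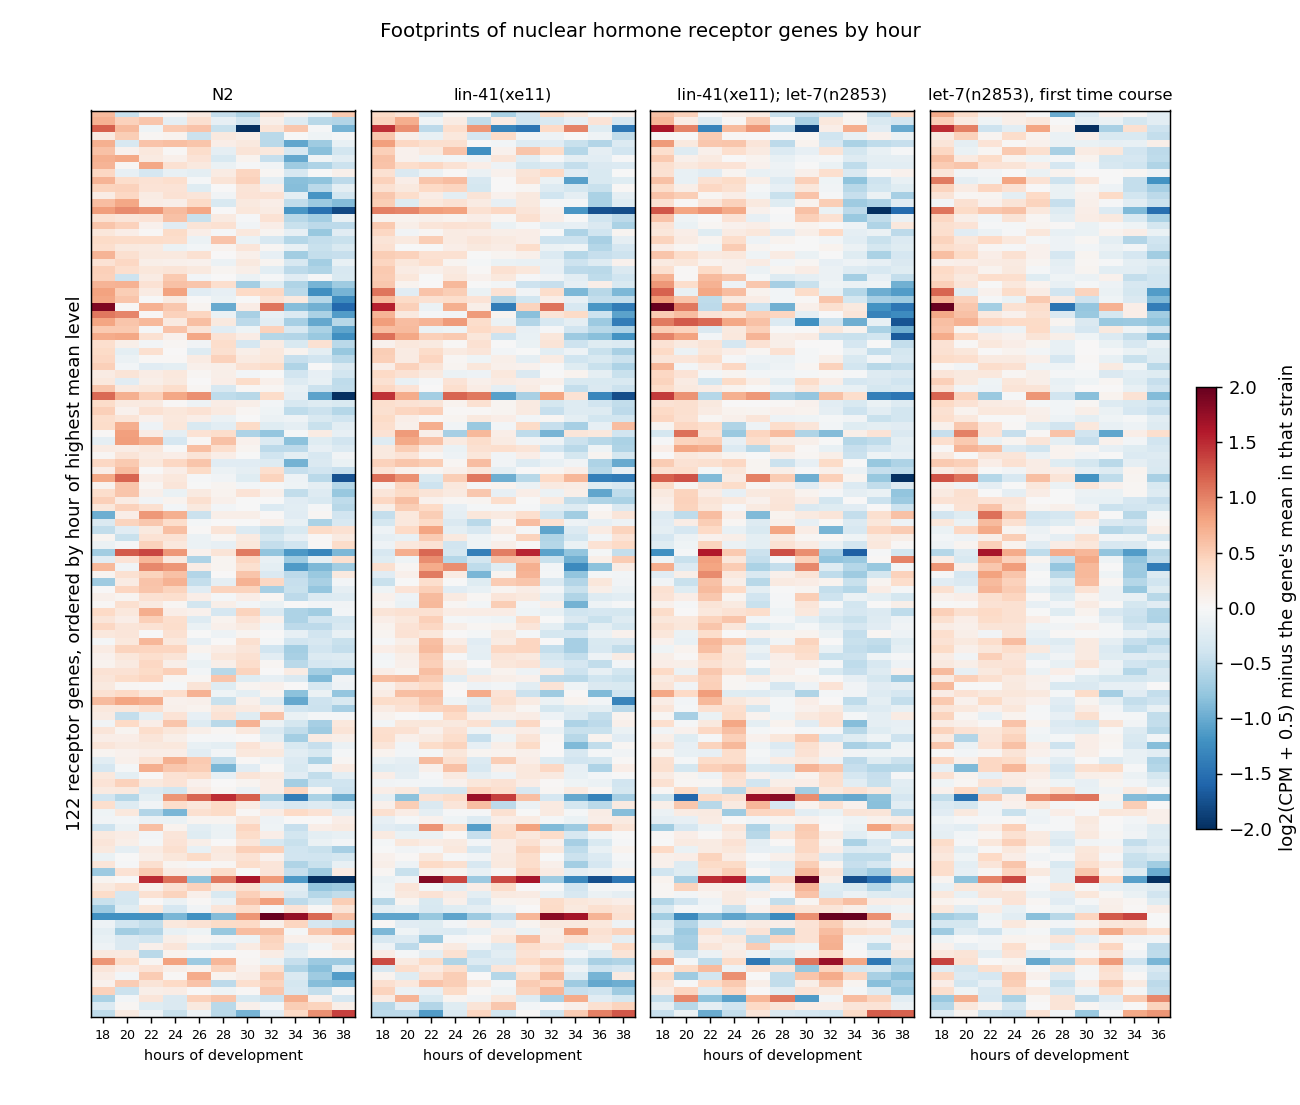
Footprints of the 122 receptor genes with an hour effect (rows, ordered by the hour of the highest mean level in the course with N2) at each hour of development (columns) in 4 strains. Colour gives log2(CPM + 0.5) minus the gene's mean in that strain; most rows are red at 18 to 24 h and blue at 34 to 38 h, and a smaller set in the lower part is red at 30 to 32 h.

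Among receptors with a counterpart in flies or vertebrates, nhr-91 had the most marked pulses. Its level in N2 was 49.9, 37.1, 31.5, 38.8, 42.8, 15.6, 15.2, 29.2, 19.9, 10.5 and 5.10 CPM from 18 to 38 h. It was high at 18 h, at 24 to 26 h and again at 32 to 34 h, each time lower than before, and the same hours stood out in both mutants of that course. Over these strains it fell from 58.5 ± 7.51 CPM at 18 h to 6.59 ± 1.66 CPM at 38 h (SD, n = 3 strains, adjusted p = 1.86e-11 for the hour effect). From here to the search for an 8 h pulse below, adjusted p-values are those of the hour effect over all hours. None of them tests the highest hour against the lowest. In N2 nhr-41 read 37.0, 64.7, 40.4, 32.0, 44.5, 46.6, 23.5, 21.0, 35.6, 40.8 and 32.6 CPM from 18 to 38 h. The highs at 20 h, at 26 to 28 h and at 34 to 36 h lay at or just after those of nhr-91, and the range was from 69.2 ± 5.64 CPM at 20 h to 19.8 ± 1.10 CPM at 32 h (n = 3 strains, adjusted p = 1.44e-09).

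A single rise and fall was seen for nhr-6, the worm's NR4A receptor, which is needed to form the spermatheca. N2 had 3.33, 2.87, 3.86, 8.72, 10.7, 13.3, 11, 2.78, 1.41, 2.73 and 2.04 CPM from 18 to 38 h. The level was high only from 24 to 30 h, and over the 3 strains it went from 13.6 ± 2.64 CPM at 26 h to 1.68 ± 0.248 CPM at 34 h, 8.13-fold (adjusted p = 4.98e-11). In let-7(n2853) it read 11.5, 12.5 and 12.9 CPM at 26, 28 and 30 h and 2.98 CPM at 34 h. Because the rise straddles the early and late windows used below, those windows do not show it.

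The tailless counterpart nhr-67, which acts in uterine and vulval development and in anchor cell invasion, fell over the course with rises between some hours. In N2 it read 3.92, 3.25, 3.51, 2.39, 3.40, 2.45, 1.28, 1.72, 1.11, 0.764 and 1.25 CPM, and over 3 strains it dropped from 4.11 ± 0.320 CPM at 18 h to 0.644 ± 0.533 CPM at 38 h (adjusted p = 2.47e-07). The relatives of the steroid receptor daf-12 had smaller ranges. The cholesterol and toxin response receptor nhr-8 went from 33 ± 3.30 CPM at 24 h to 24.3 ± 3.07 CPM at 34 h (1.36-fold, adjusted p = 0.00392), and nhr-48 from 30.5 ± 1.99 CPM at 18 h to 19.2 ± 3.22 CPM at 36 h. The HNF4 counterpart nhr-69 went from 18.9 ± 1.13 CPM at 24 h to 12.4 ± 2.61 CPM at 36 h (adjusted p = 0.000666). The other HNF4 counterpart, nhr-64, ranged from 5.32 to 9.87 CPM over all libraries and missed the threshold (adjusted p = 0.114).

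**Figure D2:**
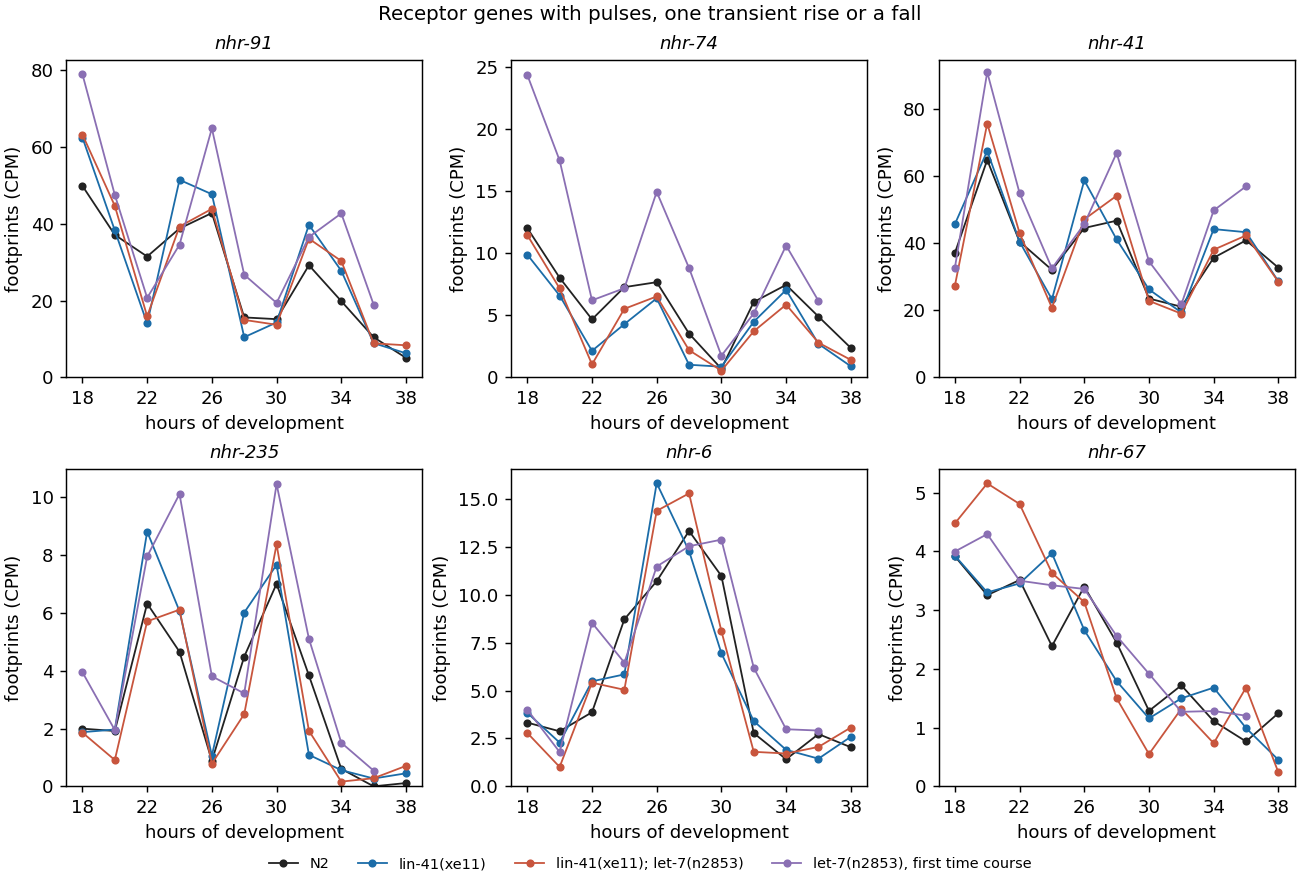
Footprints (CPM) of 6 receptor genes against hours of development, with 1 point per library and 1 line per strain. Pulses recur in nhr-91, nhr-74 and nhr-41, nhr-235 is high at 22 to 24 h and at 30 h, nhr-6 rises once to 10.7 to 15.8 CPM at 26 to 28 h, and nhr-67 falls from 3.92 to 4.48 CPM at 18 h in the 3 strains of the second course.

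Metabolic receptors differed in their course. From 18 to 38 h nhr-49 in N2 read 82.6, 77.7, 69, 75.2, 70.9, 59.6, 64.6, 59.7, 60.1, 52.0 and 48.7 CPM, a fall with little wave (over 3 strains 83.9 ± 1.15 CPM at 18 h and 48.9 ± 0.857 CPM at 38 h, adjusted p = 3.04e-09). By contrast nhr-31 was high at 22 h and 30 h and low at 34 h, with 89.9, 91.6 and 47.1 CPM in N2 (adjusted p = 2.73e-08). In nhr-68 the highest mean was 62.8 ± 4.44 CPM at 28 h and the lowest 34.1 ± 5.04 CPM at 38 h (adjusted p = 0.00479). The partner of nhr-68 in the propionate shunt, nhr-10, went from 19 ± 0.616 CPM at 30 h to 11 ± 0.314 CPM at 34 h (adjusted p = 0.000176). Partners of nhr-49 in fat metabolism were weaker in level: nhr-66 peaked at 30.5 ± 3 CPM, nhr-80 at 9.74 ± 0.980 CPM and nhr-13 at 9.45 ± 1.70 CPM. A receptor that acts in dietary restriction, nhr-62, ranged from 4.39 to 8.83 CPM and missed the threshold (adjusted p = 0.0666). The flattest of the abundant receptors was nhr-86, with 26.5 ± 1.40 CPM at 30 h and 21.5 ± 0.889 CPM at 18 h (1.23-fold, adjusted p = 0.00245).

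Of the 3 receptors that peaked after 32 h, nhr-76, which takes part in fat loss driven by serotonin, had the clearest rise. It stayed between 0.701 and 2.11 CPM in N2 up to 32 h and then read 2.52, 3.82 and 5.44 CPM at 34, 36 and 38 h. At 38 h it reached 5.74 CPM in lin-41(xe11) and 4.48 CPM in double mutants, so all 3 strains were high there (5.22 ± 0.655 CPM, against 0.985 ± 0.570 CPM at 22 h, adjusted p = 2.70e-09). In let-7(n2853) its highest level, 4.11 CPM, was at its last hour, 36 h. The others were nhr-181 at 34 h and nhr-193 at 36 h, with mean peaks of 2.17 and 3.38 CPM.

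Neighbouring receptors on chromosome II had unlike courses. In N2 nhr-234 (WBcel235, 12636678 to 12638491, + strand) was at 0 to 0.136 CPM through 28 h and then read 1.64, 5.16, 3.43, 2.07 and 1.25 CPM. The libraries before 30 h held 0 to 3 counts each in the course with N2 and 0 to 10 in let-7(n2853), and no fold is given (adjusted p for the hour effect 1.15e-11). Its neighbour nhr-235 (12640670 to 12642917, + strand) in N2 read 2, 1.91, 6.32, 4.66, 0.882, 4.49, 7.01, 3.84, 0.605, 0 and 0.113 CPM from 18 to 38 h. It was high at 22 to 24 h and at 28 to 32 h and nearly silent from 34 h, when nhr-234 was still at 3.43 CPM (adjusted p 1.34e-10).

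A pulse that recurs with each molt was sought with an 8 h cosine on log2 CPM over a smooth trend, fitted with limma in each strain alone, so that the 4 fits share no library. It was called in 6 of 161 receptors in N2 (8.64% of all genes), in lin-41(xe11) it was called in 25 of 158 (26.0% of all genes), in double mutants in 20 of 158 (20.0%) and in let-7(n2853) in 29 of 160 (27.7%). The receptors' own shares were 3.73%, 15.8%, 12.7% and 18.1% in that order. Among those tested in all 4 strains, 22 were called in at least 2 (14.2%, against 24.4% of all genes), 10 in at least 3 (6.45%, against 16.6%) and 2 in all 4 (1.29%, against 6.85%). With 10 or 11 hours per strain these counts depended on single libraries. For N2 they fell to 0 without 22, 26 or 34 h, for the double mutant without 26, 28, 34 or 38 h, and for let-7(n2853) without 26 h. In lin-41(xe11) they ran from 12, without 34 h, to 25.

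Both receptors called in all 4 strains were abundant, nhr-91 and nhr-34. The amplitude of nhr-91, on the log2 scale, was 0.59 ± 0.12 in N2, 0.82 ± 0.10 in let-7(n2853), 1.10 ± 0.16 in lin-41(xe11) and 0.90 ± 0.15 in double mutants (standard error; limma, adjusted p = 0.0421, 0.0139, 0.00528 and 0.0245). That of nhr-34 was 0.24 ± 0.05, 0.41 ± 0.06, 0.40 ± 0.09 and 0.45 ± 0.07 in the same order. Called in 3 strains were nhr-5, nhr-31, nhr-41, nhr-74, nhr-102, nhr-113, nhr-161 and nhr-235. Large amplitudes were also seen in scarce receptors, among them nhr-127 (1.41 ± 0.27 in lin-41(xe11) and 1.48 ± 0.25 in double mutants) and nhr-74 (1.20 ± 0.23 and 1.31 ± 0.20). Others were nhr-235 (1.08 ± 0.26 and 1.43 ± 0.27), nhr-113 (0.99 ± 0.23 and 1.07 ± 0.22) and, in let-7(n2853), nhr-265 (1.34 ± 0.26). In N2 the largest were nhr-102 (0.66 ± 0.12) and nhr-53 (0.62 ± 0.10), and nhr-68 (0.46 ± 0.10) and nhr-14 (0.24 ± 0.04) were called there as well. Other receptors among the 10 largest in a strain were nhr-7, nhr-84, nhr-161 and nhr-168 in lin-41(xe11), nhr-84, nhr-99, nhr-161, nhr-181 and nhr-41 in double mutants, and nhr-5, nhr-7, nhr-41, nhr-63 and nhr-148 in let-7(n2853).

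The fitted peaks of the 22 receptors called in at least 2 strains lay mostly within 1 stretch of the cycle. Fitted peaks of all rhythmic genes were not counted, so this stretch cannot be called particular to the receptors. In the course with N2 the fitted peak of nhr-114, a receptor needed for germline health on certain bacterial diets, came at 18.7 h and that of nhr-41 at 19.7 h. A block of 16 followed between 21.3 h (nhr-70) and 23.8 h (nhr-148), with nhr-14 at 22.1 h, nhr-31 at 22.7 h and nhr-34 at 23 h. The last were nhr-161 at 24.2 h, nhr-91 at 25.2 h, nhr-74 at 25.7 h and nhr-113 at 25.9 h. Fitted peaks in let-7(n2853) were mostly somewhat later than in the other course, as for nhr-34 (23.9 h, against 22.6 to 23.1 h) and nhr-91 (25.8 h, against 25.1 to 25.2 h), a difference that was not tested. For reference, the molting regulators nhr-25 and nhr-23 had fitted peaks at 20.2 h and 24.6 h in lin-41(xe11).

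**Figure D3:**
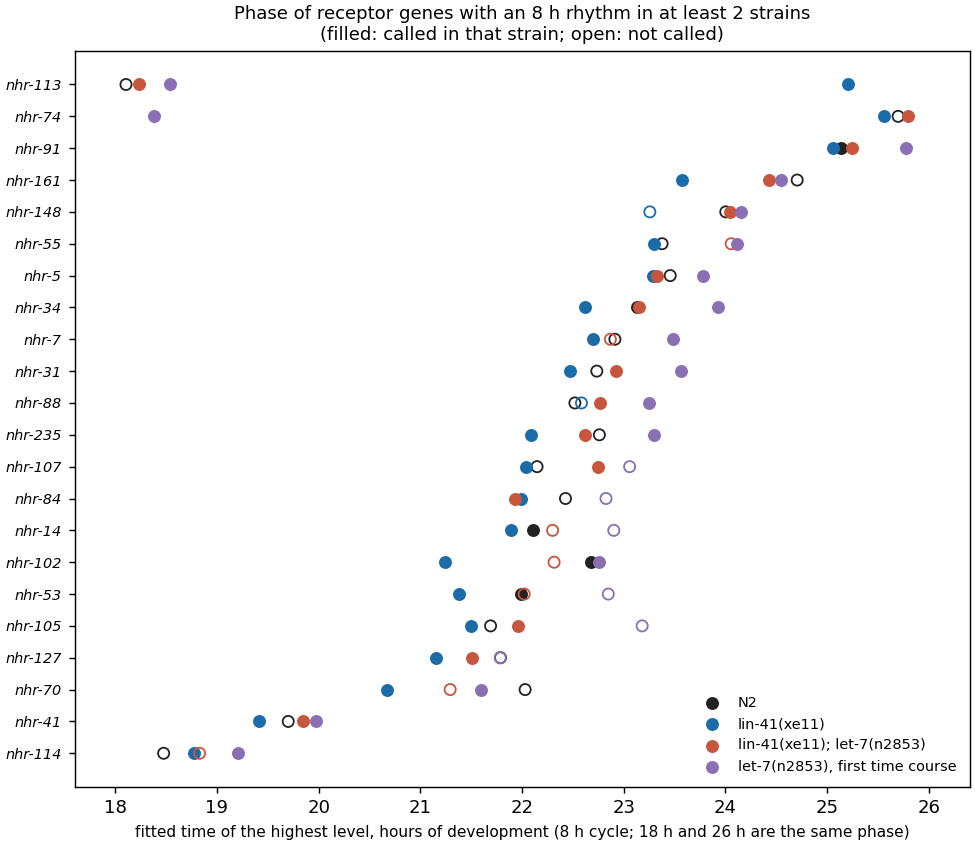
Fitted hour of the highest level within an 8 h cycle (horizontal axis, 18 and 26 h being the same phase) for the 22 receptors with a rhythm called in at least 2 strains (rows), with 1 point per strain, filled where called. Most points lie between 21 and 24 h, nhr-114 and nhr-41 lie near 19 to 20 h, and nhr-91, nhr-74 and nhr-113 lie near 25 to 26 h or, past the end of the cycle, just after 18 h.

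In N2 alone, the late window (28 to 36 h, 5 libraries) was set against the early one (18 to 24 h, 4 libraries), a comparison in which hours serve as replicates. Of 157 receptors tested, 18 were called, all lower late and none higher (11.5%, against 16.5% of all genes called, 8.33% higher and 8.13% lower). That none was higher depended on the settings. In 4 alternatives 1 receptor was called higher: no low-count filter, the filter over all 43 libraries, wider windows, and leaving out 28 h. Called lower there were 11, 17, 26 and 17. The median log2 change was -0.31, against -0.02 over all genes tested, and 130 of 157 were below 0. Among these 157, every late library lay below every early one in 14 receptors (8.92%, against 7.44% of all genes). In none of the 157 did every late library lie above (11.8% of all genes). Left out by the filter of this fit was nhr-234, which had 1 CPM in too few of these libraries. Its N2 values were 0 to 0.119 CPM early and 0.136 to 5.16 CPM late, so every late library lay above. The germline and neuronal marker sums given above moved over the same hours, and their part in this fall was not tested.

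**Figure D4:**
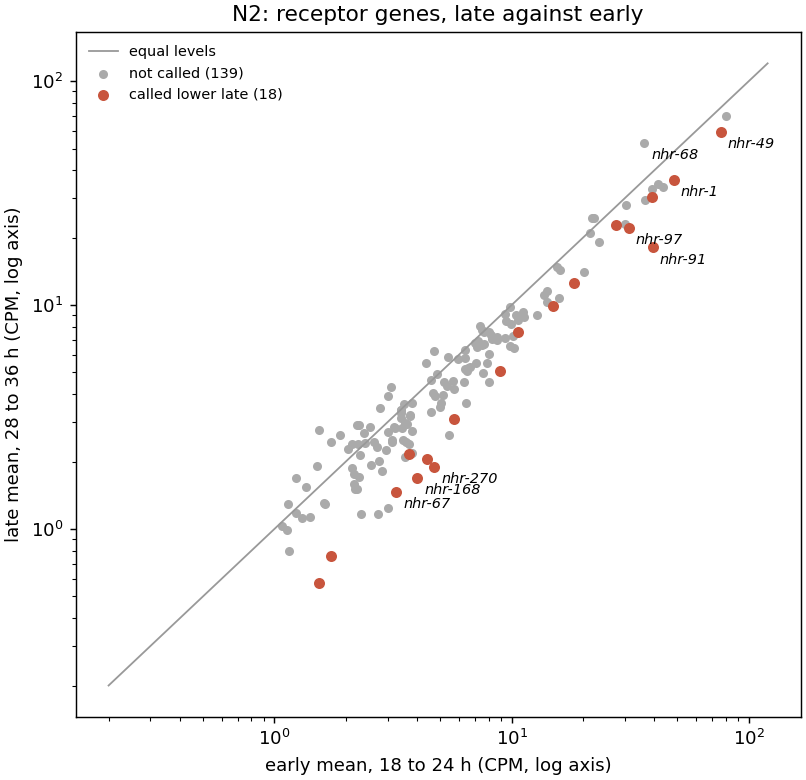
Mean level of each of 157 receptors in N2 at 28 to 36 h (vertical, CPM, log axis, n = 5 hours) against 18 to 24 h (horizontal, CPM, log axis, n = 4 hours). Red points are the 18 called lower late, and most grey points also lie below the line of equal levels.

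The abundant metabolic receptor nhr-49 was 76.1 ± 5.68 CPM early and 59.2 ± 4.52 CPM late (log2 change -0.38 ± 0.07, adjusted p = 0.0145). Among the 18 called, nhr-91 changed most of those over 10 CPM, from 39.3 ± 7.70 to 18.1 ± 7.07 CPM (-1.14 ± 0.26, adjusted p = 0.0218), a comparison in which its pulses are averaged. The low-level receptors nhr-230 (-1.47 ± 0.39), nhr-270 (-1.36 ± 0.40), nhr-168 (-1.25 ± 0.27), nhr-67 (-1.20 ± 0.29), nhr-140 (-1.19 ± 0.29) and nhr-154 (-1.12 ± 0.26) had early means between 1.54 and 4.72 CPM. N2 values of nhr-270 were 4.73, 5.17, 4.92 and 4.06 CPM early and 2.45, 2.92, 2.78, 0.807 and 0.545 CPM late, so the groups did not overlap. The rest of the called receptors were nhr-203 (-0.89), nhr-138 (-0.85), nhr-57, a hypoxia-induced receptor (-0.79), nhr-4 (-0.63), nhr-100 (-0.58), nhr-228 (-0.52), nhr-97 (-0.51), nhr-1 (-0.44), nhr-3 (-0.38) and nhr-66 (-0.30). The receptors nhr-14, nhr-31, nhr-41, nhr-45, nhr-46 and nhr-48 were lower but missed the threshold, with log2 changes between -0.40 and -0.22. Of the 27 receptors above 0, none was called, and those among the 13 densest were nhr-68 (36.3 ± 12.5 to 52.8 ± 5.74 CPM, 0.54 ± 0.22, adjusted p = 0.118), nhr-114 (0.16 ± 0.17) and nhr-86 (0.13 ± 0.08).

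The count rested on single hours. Leaving out 18, 20, 22 or 24 h gave 1, 5, 4 or 11 calls, leaving out 32, 34 or 36 h gave 9, 5 or 3, and no receptor was called without 34 and 36 h together. The call for nhr-49 held in 15 of 16 alternatives, and those for nhr-91 and nhr-168 in 14 of 16.

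The same windows were tested within each other strain, an addition made after seeing the data. All 28 receptors called in let-7(n2853) were lower late (17.8% of 157 tested, against 20.4% of all genes called). Of the 7 called in double mutants 6 were lower (the 7 are 4.49% of 156 tested, against 12.6% of all genes), and of the 14 called in lin-41(xe11) 12 were lower (the 14 are 9.09% of those tested, against 17.2%). Called higher were nhr-176 (0.73 ± 0.20) and nhr-193 (0.73 ± 0.20) in lin-41(xe11), and again nhr-193 (0.66 ± 0.16) among double mutant libraries. The 18 receptors called in N2 were below 0 in 18 of 18 for let-7(n2853), 12 of them called, in 16 of 17 for the double mutant, 4 called, and for lin-41(xe11) in all 16 that could be tested, 3 called. Called in all 4 strains were nhr-67 and nhr-138. Overlaps between strains were not counted over all genes, so these counts are not a result about the family. For nhr-67 the log2 change was -1.20 ± 0.29 in N2, -1.21 in let-7(n2853), -1.93 in double mutants and -1.35 in lin-41(xe11). That of nhr-138 was -0.85, -0.77, -0.48 and -0.74 in the same order.

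Strain differences were asked with hour as a shared term across 27 libraries. Late in development, lin-41(xe11) against N2 gave no call among 167 receptors (0.415% of all genes called), with nhr-154 nearest at 0.80 ± 0.18 (adjusted p = 0.0692). At an unadjusted p under 0.05 were 11 receptors and 1051 of all 13508 genes tested. Against N2 the double mutant gave 2 calls, both higher (0.911% of all genes called, 0.267% higher). Double mutant against lin-41(xe11) gave none (0.126% of all genes), with 11 receptors and 778 of 13508 genes at an unadjusted p under 0.05. Its lowest p among receptors was that of nhr-114 (-0.33 ± 0.09, adjusted p = 0.39). In the early window edgeR called none in lin-41(xe11) (0.0222% of all genes), nor in double mutants (0.037%). An unadjusted p under 0.05 was seen for 9 receptors and 774 of 13508 genes in lin-41(xe11). For double mutants it was seen for 12 receptors and 890 genes. The lowest p there belonged to nhr-68 in lin-41(xe11) (0.65 ± 0.15, adjusted p = 0.173) and to nhr-61 in double mutants (0.66 ± 0.17, adjusted p = 0.39).

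The receptors called in the double mutant late were nhr-3 and nhr-154. At 28 to 36 h nhr-3 read 31.5, 32.7, 27.2, 28.4 and 32.2 CPM in N2 and 47.8, 32.5, 33.9, 34.2 and 40.3 CPM in the double mutant. The double mutant was lower than N2 only at 30 h, by the smallest gap of the 5 hours, and the log2 difference was 0.30 ± 0.07 (adjusted p = 0.0434). In lin-41(xe11) nhr-3 read 37.5, 37.7, 32.8, 31.9 and 38.4 CPM, above N2 at each of these hours but not called. At 18 to 24 h it read 42.7, 54.7, 46.7 and 39.4 CPM in the double mutant. N2 had 38.7, 45.4, 41.1 and 31.8 CPM there, so the double mutant was also higher early, though not called. For nhr-154 the values were 1.90, 3.04, 2.25, 1.11 and 1.96 CPM in N2 and 3.70, 4.26, 3.84, 2.53 and 3.27 CPM in the double mutant. The double mutant was higher at every hour, by 0.77 ± 0.18 on the log2 scale (adjusted p = 0.0485), with 4.22, 3.76, 3, 3.47 and 3.16 CPM in lin-41(xe11). Both calls sat near the threshold, and they ended in 12 of 17 alternatives for nhr-3 and in 14 of 17 for nhr-154.

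Another low-level receptor, nhr-155, had brief high values. It read 0.300, 2.33, 3.96, 1.79 and 0 CPM in the double mutant at 28 to 36 h, against 0.816, 0.350, 0.265, 0.101 and 0 CPM in N2 and 0.256, 0.723, 0.817, 0.224 and 0.0902 CPM in lin-41(xe11). Within this window the double mutant was high at 30 to 34 h. The late difference from N2 was 2.38 ± 0.58 on the log2 scale, but it was not called (adjusted p = 0.0655). In let-7(n2853) nhr-155 read 1.33, 1.98 and 0.528 CPM at 30 to 34 h. It was also high at 18 h, with 1.94 CPM in the double mutant, 1.03 CPM in N2, 1.79 CPM in lin-41(xe11) and 3.01 CPM in let-7(n2853).

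For let-7(n2853), whose course and purification differed from those of N2, the late minus early change was compared with that of N2. No receptor of 166 was called (0.023% of all genes). At an unadjusted p under 0.05 were 9 receptors and 1362 of 13061 genes. The lowest p was that of nhr-234, which in let-7(n2853) read 0.708, 1.58, 1.77 and 0.388 CPM at 30 to 36 h, against 1.64, 5.16, 3.43 and 2.07 CPM in N2 (adjusted p = 0.283). The early libraries held 0 or 1 count each in N2 and 1, 2, 10 and 7 counts in let-7(n2853), so no fold against N2 early is given.

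**Figure D5:**
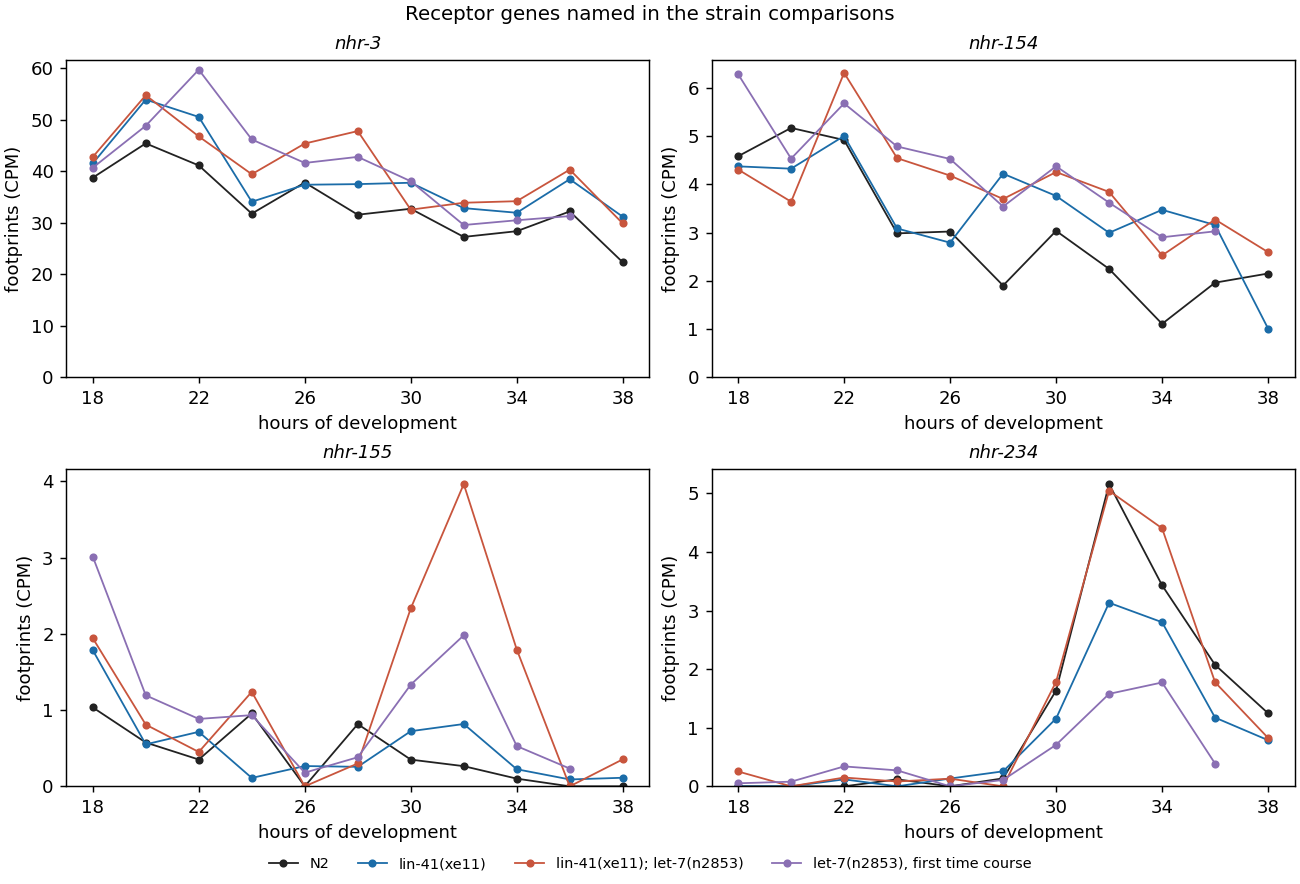
Footprints (CPM) of nhr-3, nhr-154, nhr-155 and nhr-234 against hours of development, with 1 point per library and 1 line per strain. N2 is lowest in nhr-154 at 28 to 36 h, the double mutant reaches 3.96 CPM in nhr-155 at 32 h, and nhr-234 is near 0 until 28 h in all 4 strains.

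Genes that work with these receptors were counted in the N2 comparison of late with early hours, where 8.33% of all genes were called higher and 8.13% lower. A count of 1 or 2 calls in lists this short is not a result about a list. Of 6 receptor cofactors 1 fell, din-1, the corepressor of DAF-12 (-1.28 ± 0.23, adjusted p = 0.0129), while mdt-15, the Mediator subunit through which NHR-49 acts, read -0.13 ± 0.08 and was not called. None of 5 tested targets reported for NHR-49 was called (median 0.22), and 1 of 5 genes of the propionate shunt rose, alh-8 (0.56 ± 0.16, adjusted p = 0.045), with acdh-1 at 1.3 ± 0.39 (adjusted p = 0.0508). Among V-ATPase subunits, known targets of NHR-31, 1 of 20 rose, vha-18 (1.85 ± 0.44, adjusted p = 0.0242), and the median was 0.002. No gene of 5 in the methionine and SAM cycle was called (median -0.03). Of 5 tested genes for dafachronic acid and sterols 1 fell, dhs-16, which acts in synthesis of the DAF-12 ligand (-1.01 ± 0.29, adjusted p = 0.0478). Of 6 other nuclear receptors tested 2 fell, daf-12 (-2.54 ± 0.26, adjusted p = 0.0053) and unc-55 (-1.66 ± 0.49, adjusted p = 0.0481).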

How the data were processed

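Whole-worm ribosome footprints were measured in 43 libraries of 4 strains, grouped by the strain and hour in the labels. The authors deposited footprint counts per gene, mapped with Bowtie per the submitters' processing notes; the version, genome build, annotation and treatment of multiply mapping reads are not given in the sources used here. The authors also deposited log2 values, which equal log2 of the scaled count plus 8 and served as an alternative. Symbols were joined by exact identifier (18778 of 20182 rows), and positions and coding lengths come from the WBcel235 annotation, which holds all 172 receptors.

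Counts were fitted over all genes with edgeR 4.0.16 (quasi-likelihood, TMM factors, at least 1 CPM in at least 5 libraries of the fit) in R 4.3.3, and rhythms with limma 3.58.1 (prior count 2, linear and quadratic trend). Called means a p under 0.05 after Benjamini-Hochberg adjustment. Windows were 18 to 24 h and 28 to 36 h. Printed CPM are scaled by TMM factors. The fits had 7 (N2 alone), 14 (3 strains), 7 (let-7(n2853) with N2) and 20 (hour effect) residual degrees of freedom. Errors of log2 values are standard errors, others are SD. P-values measure the spread between hours or strains, which may be technical. Alternatives included DESeq2 1.42.0, other scaling, filters, windows and periods, and leaving out each hour. Procedures were tested on simulated data. The receptors and gene lists were chosen with earlier results of these data known. Named are the 12 densest receptors, called receptors (all if few), the 10 largest rhythm amplitudes per strain, conserved or well-studied receptors, and those at the filter's edge. Receptors shown for a distinct course (nhr-235, nhr-234, nhr-76, nhr-155) were chosen after their values were seen.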

Additional observations from a re-analysis of the deposited data

Results flagged for a closer look

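Within strain and window, 152 groups of 4 or 5 hours of named receptors were searched for a single library far from the others, and 2 were found; chance flags about 1 group in 20. In lin-41(xe11) nhr-100 read 21.2 CPM at 18 h, above the 15.7 to 16.5 CPM of the other early hours. In the double mutant nhr-49 read 45.8 CPM at 36 h, below the 58.5 to 60.8 CPM of the other late hours. The lowest late hour of nhr-49 was 36 h in N2 (52.0 CPM), lin-41(xe11) (50.1 CPM) and let-7(n2853) (69.1 CPM) as well.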

How the results depend on the processing

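Hours serve as replicates and 1 library per strain and hour was measured, so spread between cultures is unknown and counts of calls moved with single hours. The labels give no replicate numbers; the strain fits pair libraries by hour through the hour term. N2 late against early called 18 receptors, from 1 to 18 when leaving out each hour, 0 without 34 and 36 h, 34 in the deposited log2 table, 28 in let-7(n2853) and 7 in double mutants. The double mutant against N2, late, gave 2 calls, from 0 to 1 when leaving out each hour, 1 by DESeq2, and 0 with RLE factors, with no filter, without 34 and 36 h and with no hour term. The comparison of lin-41(xe11) with N2 gave 1 late call with wider windows and 1 early call by DESeq2. The hour effect called up to 124 receptors without single hours, 102 without N2, 88 without lin-41(xe11), and 81 when the double mutant was left out. Rhythm calls ranged from 0 to 8 in N2, from 0 to 26 in let-7(n2853), from 12 to 25 in lin-41(xe11) and from 0 to 18 in double mutants when leaving out each hour. A 9 h period gave 0 in all 4 strains; a 7 h period gave 0 in N2, 15 in lin-41(xe11), 26 in double mutants and 43 in let-7(n2853), and the log2 table gave 10 in N2. The cause was not tested. DESeq2 gave no adjusted p for any receptor in the early comparison of the double mutant with N2, so no count is given. Of the alternatives, 144 counts stayed within 1.5 times the main count and 62 did not. The 144 include counts that stayed at 0 in comparisons with no main call, so they do not measure how stable the calls were. Directions of window or strain differences were followed for the 18 receptors called in N2 and for nhr-3 and nhr-154 in the double mutant, and none reversed.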

Other observations

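Receptors of the let-7(n2853) course stood higher as a family, with 0.189% ± 0.0189 of footprints early (SD, n = 4 hours), against 0.157 to 0.159% in the 3 strains of the other course, and 0.139% ± 0.0167 late, against 0.116 to 0.124%. The strain cannot be told apart from the course there. One pulsed receptor with a higher level there was nhr-74, chosen after its values were seen, with 24.4 CPM at 18 h in let-7(n2853) and 9.91 to 12 CPM in the other strains, and 15 CPM at 26 h against 6.38 to 7.68 CPM.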
